A study of Arabidopsis thaliana with 4 samples.

Results

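Transcript levels of 9 genes of flavonoid and anthocyanin synthesis in Arabidopsis thaliana shoots were compared between php mutants and wild-type plants, following the pathway step by step. The 9 were chosen as named steps of the pathway, with earlier results of these data known. They were read from 9 probe sets, of the 22746 plant probe sets on the Affymetrix ATH1 array. A probe set is a group of short oligonucleotides that together measure 1 transcript, or for some probe sets more than 1. The genes were grouped as 5 early steps (CHS, CHI, F3H, F3'H and FLS1), 3 late steps (DFR, LDOX and AT5MAT) and 1 transcription factor (PAP1). The array's annotation used here names the probe sets of DFR and AT5MAT. The other 7 carry the gene names of the list by which they were chosen, and that annotation does not list them.

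There were 2 arrays of php mutant plants and 2 of wild-type plants, each array called replicate I or II within its genotype. All plants were grown on soil, and their above-ground parts were taken at 14 days of age with no treatment named in the labels. Each array held RNA of 3 independently derived samples pooled together, so differences between single plants are not visible. PHP, PLANT HOMOLOGOUS TO PARAFIBROMIN, belongs to the PAF1 complex that accompanies RNA polymerase II. The php allele is not given in the sources used here and the PHP transcript itself was not used here, so nothing in these values checks the labels.

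Flavonoids are phenolic compounds of plants, among them the colourless flavonols that absorb ultraviolet light and the red to purple anthocyanins. Chalcone synthase opens the pathway, and a short series of early enzymes leads to dihydroflavonols. From there flavonol synthase makes flavonols, and dihydroflavonol reductase and later enzymes make anthocyanins, which are then decorated with sugars and acyl groups. In Arabidopsis seedlings the early genes are mainly driven by a small group of MYB factors, and the late genes by complexes of a MYB factor such as PAP1 with bHLH and WD40 proteins.

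All values are log2 levels normalized by the authors with GCRMA, on which a difference of 1 is a doubling. The median level of the 4 arrays lay between 5.59 and 5.64, and arrays of the same genotype correlated at r = 0.993 for php and 0.994 for wild-type across the probe sets tested, which are not independent replicates. Arrays have no read depth, so their number limits the precision. Light-harvesting and photosystem genes of leaves, LHCB4.1, LHCB4.2, LHCB4.3, PSBW and PSBY, were at 9.17 or above on all 4 arrays, and the root hair genes EXPA7 and EXPA18 at 1.93 or below. The 4 flower genes measured lay at 2.67 or below. The root marker PYK10, which shoots also express, was at 12.31 and 12.17 in php against 11.67 and 11.87 in wild-type. The control probe set for 25S rRNA was at 6.30 and 6.97 in php against 5.40 and 5.50 in wild-type. The part of these in the results below was not tested.

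Of the 9 transcripts, 8 had a lower mean in php and 1, PAP1, a higher one. Both php arrays lay below both wild-type arrays for 7 of them, and CHI was the 1 whose genotypes overlapped. In whole shoots, fewer cells making a transcript and less of it per cell cannot be told apart. CHS and FLS1 had the widest separations, with levels about 1.6-fold lower in php. No member passed the test: limma's adjusted p over the 15922 probe sets tested was 0.0934 to 0.774 for the 9, and 0 of 9 were called at an adjusted p under 0.05. Over all probe sets tested 0.0314% were called. At an unadjusted p under 0.05 in limma, 5 of 9 were lower and 1 of 9 higher in php, where 12.9% and 11.3% of all probe sets were. Both php arrays lay below both wild-type arrays for 27.4% of all probe sets, and above both for 33.2%. The 4 arrays are the same for every gene, so these shares do not count independent events.

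**Figure D1:**
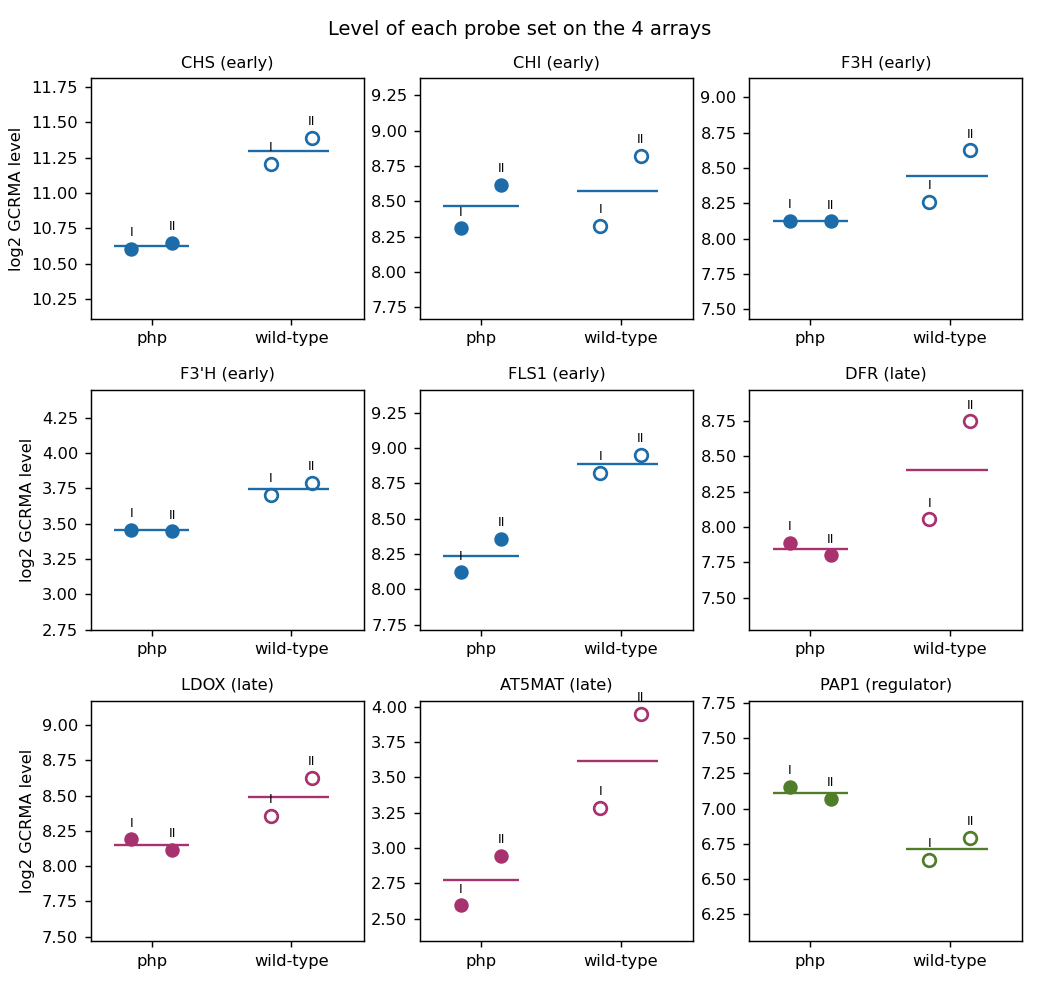
Log2 GCRMA level of the 9 pathway probe sets on each array, with php (filled points) left of wild-type (open points). Horizontal lines are means of 2 arrays, I and II are the replicate names, and every panel spans the same number of log2 units. The php points lie below the wild-type points in 7 panels, overlap them for CHI and lie above them for PAP1.

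CHS (locus AT5G13930) encodes chalcone synthase, the entry enzyme of the pathway. Its level was 10.60 and 10.65 in php, against 11.20 and 11.39 in wild-type. The nearest arrays of the 2 genotypes were 0.56 apart, while replicates differed by at most 0.19. The means were 10.62 ± 0.03 in php and 11.30 ± 0.13 in wild-type (SD, n = 2 arrays each), a log2 difference of -0.67 (SE 0.08, 95% confidence interval -0.89 to -0.45, limma adjusted p = 0.0934). Among the 751 tested probe sets within 0.5 log2 units of its mean level, 0.799% had a difference as low or lower.

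CHI (251827_at) encodes chalcone isomerase, which closes the ring of the chalcone. Its level was 8.31 and 8.62 in php, against 8.33 and 8.82 in wild-type, so the genotypes overlapped and each spread more than their means differed. The difference was -0.11 (95% confidence interval -0.71 to 0.49, limma adjusted p = 0.774). Leaving out 1 array gave 0.04 for php replicate I, -0.27 for php replicate II, -0.36 for wild-type replicate I and 0.14 for wild-type replicate II, so no direction is given for CHI.

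F3H (252123_at) encodes flavanone 3-hydroxylase, which makes dihydroflavonols. It was at 8.13 and 8.12 in php, against 8.26 and 8.62 in wild-type. The php arrays were nearly equal and below both wild-type arrays, but the wild-type arrays were 0.36 apart and the nearest php array only 0.13 below the lower of them. The difference was -0.32 (SE 0.14, limma adjusted p = 0.265). With wild-type replicate I left out it was -0.50, and with replicate II left out -0.14.

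F3'H (250558_at) encodes flavonoid 3'-hydroxylase, which adds a hydroxyl group to the B ring. It was at 3.46 and 3.45 in php, against 3.70 and 3.79 in wild-type. All 4 values were low: the control probe sets named Trpn, which have no plant target, lay between 2.28 and 2.68. Other probe sets lay lower still, such as that of BAN at 1.88 to 1.90. Within this narrow range the genotypes were apart by 0.25 and the replicates by at most 0.08. The difference was -0.29 (SE 0.06, 95% confidence interval -0.47 to -0.11, limma adjusted p = 0.124). Its size is not measured well near the background.

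FLS1 (250533_at) encodes the main flavonol synthase of Arabidopsis and stands at the branch to flavonols. It was at 8.12 and 8.36 in php, against 8.83 and 8.95 in wild-type. The nearest arrays of the genotypes were 0.47 apart, about double the 0.24 between the php arrays. The means were 8.24 ± 0.17 in php and 8.89 ± 0.09 in wild-type (SD, n = 2 arrays each), a log2 difference of -0.65 (SE 0.11, 95% confidence interval -0.95 to -0.35, limma adjusted p = 0.105). Of 2262 tested probe sets of like level, 1.06% had a difference as low or lower.

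DFR (locus AT5G42800) encodes dihydroflavonol reductase, the first enzyme of the anthocyanin branch. It was at 7.89 and 7.80 in php, against 8.06 and 8.75 in wild-type. The wild-type arrays were 0.69 apart, more than the difference between the means, and wild-type replicate I was only 0.17 above the nearest php array. The means were 7.84 ± 0.06 in php and 8.40 ± 0.49 in wild-type (SD, n = 2 arrays each). The difference of -0.56 was not called (95% confidence interval -1.26 to 0.15, limma adjusted p = 0.275). It shrank to -0.21 once wild-type replicate II was left out, and leaving out replicate I instead gave -0.90.

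LDOX (254283_s_at) encodes leucoanthocyanidin dioxygenase, also called anthocyanidin synthase, which makes the coloured anthocyanidins. It was at 8.19 and 8.12 in php, against 8.36 and 8.62 in wild-type. The genotypes were apart by 0.17 and the wild-type arrays by 0.27. The difference was -0.34 (SE 0.11, 95% confidence interval -0.65 to -0.02, limma adjusted p = 0.196), and it ranged from -0.47 with wild-type replicate I left out to -0.20 with replicate II left out. The _s in the probe set's name marks oligonucleotides shared by more than 1 transcript, so this signal may not be of LDOX alone.

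AT5MAT (256924_at) encodes the enzyme that adds a malonyl group to anthocyanins. It was at 2.59 and 2.94 in php, against 3.28 and 3.95 in wild-type. Php replicate I lay within the range of the Trpn control probe sets, and the other 3 arrays above that range. The difference was -0.85 (SE 0.27, 95% confidence interval -1.60 to -0.09, limma adjusted p = 0.182). It was -1.18 when wild-type replicate I was left out and -0.51 when replicate II was, and so close to the background its size is not measured well.

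PAP1 (245628_at), also called MYB75, encodes the MYB transcription factor known to activate late anthocyanin genes such as DFR and LDOX. Its level was 7.15 and 7.07 in php, against 6.64 and 6.79 in wild-type. It was the 1 member higher on both php arrays. The means were 7.11 ± 0.06 in php and 6.72 ± 0.11 in wild-type (SD, n = 2 arrays each), a log2 difference of 0.40 (SE 0.10, 95% confidence interval 0.12 to 0.67, limma adjusted p = 0.143). Of 2508 tested probe sets of like level, 6.94% had a difference as high or higher. The php arrays thus had more PAP1 signal beside less signal of DFR, LDOX and AT5MAT, though none of these differences passed the test.

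**Figure D2:**
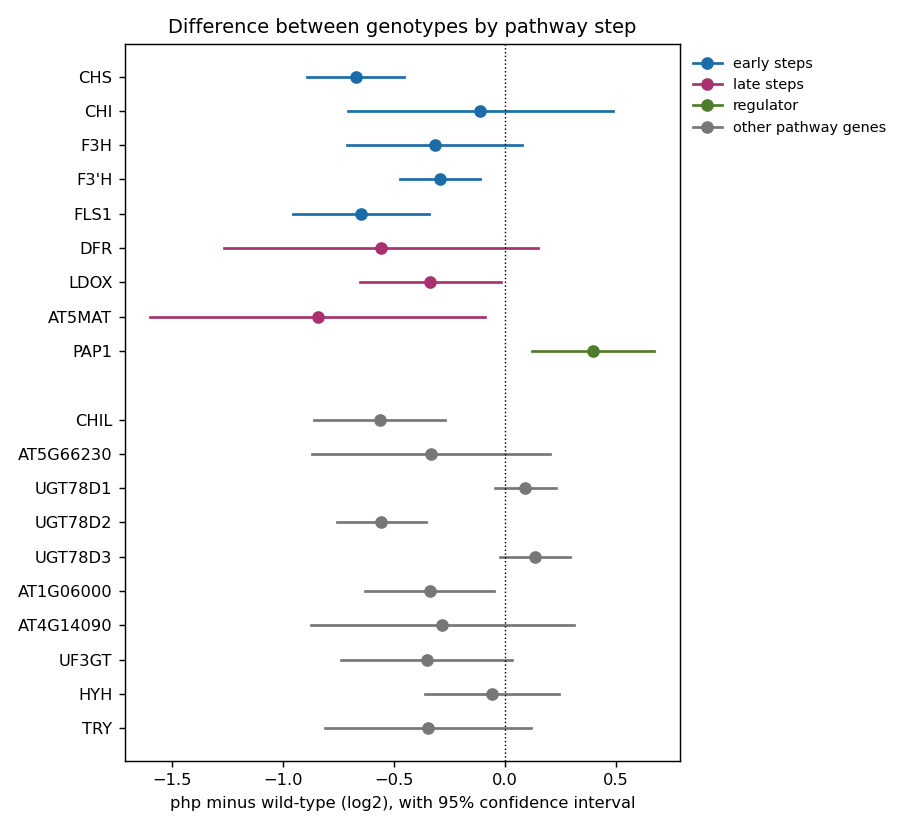
Difference between genotypes, php minus wild-type in log2 units, for the 9 members in pathway order and, under the gap, the 10 other pathway genes tested. Points are differences of means of 2 arrays each and bars are 95% confidence intervals from the limma fit. CHS, FLS1, CHIL and UGT78D2 have differences of -0.56 to -0.67. The bars of AT5MAT, DFR and CHI are the longest, and PAP1 lies to the right of 0.

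Other pathway genes were sought in lists of 65 other loci. Named probe sets measured 14 of them, and 10 passed the filter on low levels. Whole parts of the pathway were thus not read. Measured were 0 of 11 loci of the phenylpropanoid entry and 0 of 5 flavonol synthase-like loci. Of the activators 1 of 14 was measured, and of the repressors 1 of 11. None of the 10 passed the test in limma in either direction, with an adjusted p of at least 0.0934, and at an unadjusted p under 0.05 there were 3 lower and 0 higher in php, where the shares over all probe sets tested were 12.9% and 11.3%. Both php arrays were below both wild-type arrays for 6 of the 10, where 27.4% of all probe sets were, and above both for 2, where 33.2% were. The median log2 difference of the 10 was -0.34 (range -0.57 to 0.13), where the median over all probe sets tested was 0.01.

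UGT78D2 encodes the glucosyltransferase that attaches glucose at the 3 position of flavonols and anthocyanidins. It was at 7.76 and 7.82 in php, against 8.30 and 8.39 in wild-type. Its arrays of one genotype were within 0.09 of each other and the genotypes 0.48 apart. The difference was -0.56 (SE 0.07, limma adjusted p = 0.0934). CHIL, the chalcone isomerase-like protein that assists chalcone synthase, was at 5.51 and 5.62 in php, against 6.06 and 6.20 in wild-type. Its difference was -0.57 (SE 0.11, limma adjusted p = 0.113), and as with UGT78D2 both php arrays stood clear of both wild-type arrays.

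The other genes of flavonol decoration did not all have lower values. UGT78D1, a flavonol 3-O-rhamnosyltransferase gene, was at 10.18 and 10.13 in php, against 10.08 and 10.04 in wild-type, a difference of 0.09 (95% confidence interval -0.05 to 0.23). UGT78D3, a flavonol arabinosyltransferase gene, was at 3.24 and 3.17 in php, against 3.08 and 3.06 in wild-type, near the background. AT1G06000, the gene of a flavonol 7-O-rhamnosyltransferase, was at 8.55 and 8.48 in php, against 8.74 and 8.98 in wild-type, a difference of -0.34 (SE 0.10, limma adjusted p = 0.176). UGT78D1 and UGT78D2, whose enzymes act on the same position of flavonols, thus had differences of opposite sign, though the interval of UGT78D1 includes 0 and the contrast between the genes was not tested.

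Both tested genes of anthocyanin decoration were highest on wild-type replicate II. UF3GT, which adds xylose to anthocyanins, was at 7.31 and 7.28 in php, against 7.48 and 7.82 in wild-type (difference -0.35, SE 0.14, limma adjusted p = 0.229). AT4G14090, the anthocyanin 5-O-glucosyltransferase gene, was at 6.90 and 6.83 in php, against 6.87 and 7.43 in wild-type. Its genotypes overlapped, and its wild-type arrays were 0.56 apart.

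Of the regulators in the lists, only the repressor TRY and the activator HYH were measured. TRY, a small MYB protein that acts against MYB activators, averaged 4.74 ± 0.27 in php and 5.08 ± 0.11 in wild-type (SD, n = 2 arrays each). Its difference was -0.35 (SE 0.17, limma adjusted p = 0.294). HYH, a bZIP factor of light responses, was at 3.18 and 3.12 in php, against 3.34 and 3.07 in wild-type. Its genotypes overlapped, and all its values were near the background. AT5G66230 of the chalcone isomerase list was at 6.35 and 6.84 in php, against 6.88 and 6.97 in wild-type (difference -0.33, SE 0.19). BAN, the anthocyanidin reductase gene of the seed coat, was at 1.90 on both php arrays and 1.88 on both wild-type arrays, at the background. AT5G17040, AT2G22930 and AT1G34580 were below the filter too, at 2.70 or less on every array. AT1G34580 was put in the list of anthocyanin transport without an annotation here that bears it out.

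Early and late steps were set side by side as differences, because levels of different probe sets are not on a common scale. The 5 early members had a median log2 difference of -0.32 (range -0.67 to -0.11) and the 3 late members -0.56 (range -0.85 to -0.34). The median of the late members was -0.21 with wild-type replicate II left out and -0.90 with replicate I left out. That of the early members was -0.25 and -0.50 in the same 2 cases. Between the steps no test was made, since genes measured on the same arrays are not replicates.

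The larger late difference came with a larger spread among the wild-type arrays. Php replicates differed by a median of 0.04 for the early and 0.09 for the late members, where the median over all probe sets tested was 0.11. Wild-type replicates differed by a median of 0.19 for the early members (0.08 to 0.50) and 0.66 for the late members (0.27 to 0.69), where the median over all was 0.09. The mean deviation of the late members from their 4-array mean was -0.32 and -0.26 on php replicates I and II, against 0.02 and 0.56 on wild-type replicates I and II. For the early members it was -0.26 and -0.15 in php, against 0.08 and 0.33 in wild-type. The early minus late gap of these deviations was 0.06 and 0.11 in php, against 0.06 and -0.23 in wild-type. Wild-type replicate II thus stood apart on this measure, and the other 3 arrays lay between 0.06 and 0.11. The php minus wild-type difference in the gap was 0.17, and it was 0.03 without that array and 0.32 without wild-type replicate I. It was 0.04 with AT5MAT, which is near the background, left out of the late steps, so it rests on that gene as well as on that array.

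**Figure D3:**
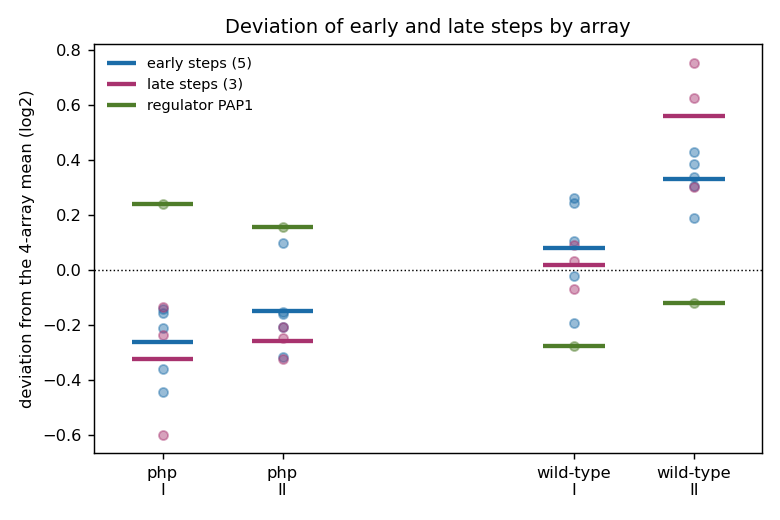
Deviation of each member from its own mean over the 4 arrays, in log2 units, with the php arrays left of the wild-type arrays. Points are single genes and bars are the means of early steps, late steps and PAP1. Early and late bars lie close together on php I, php II and wild-type I, and the late bar stands above the early bar on wild-type II, at 0.56 against 0.33.

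Between the php arrays, 4 of 9 members were higher on replicate II and 5 on replicate I, where 41.2% of all probe sets tested were higher on replicate II. Between the wild-type arrays, all 9 members were higher on replicate II, PAP1 included, with a median difference of 0.27, where 45.5% of all probe sets were. Of the 10 other pathway genes tested, 6 were higher on wild-type replicate II.

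A separation of genotypes larger than the spread within them was found for 4 members. For CHS, F3'H and FLS1, lower in php, and for PAP1, higher in php, the gap between the nearest arrays exceeded the larger distance between replicates. Such a gap with php lower was present for 12.8% of all probe sets tested, and with php higher for 12.8%. All 3 lower ones are early steps, of which F3'H is near the background. The early steps CHI and F3H did not meet the criterion, and neither did DFR, LDOX and AT5MAT. Leaving out any 1 array left 7 or 8 members with no overlap and lower in php, where the share over all probe sets was 37.0% to 39.4%. Neither number could fall by leaving out an array, since genotypes apart on all 4 arrays stay apart on fewer. A count of at least 7 was thus fixed in advance.

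**Figure D4:**
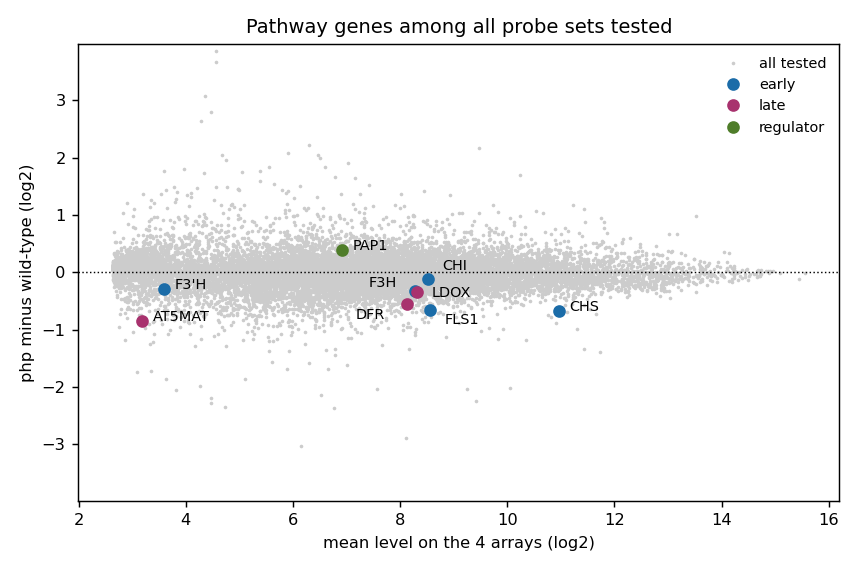
Php minus wild-type difference (log2) against mean level on the 4 arrays (log2) for all 15922 probe sets tested (grey), with the 9 members coloured by step. CHS lies at the lower edge of the cloud at its level, with 0.799% of 751 probe sets of like level as low or lower. That share was 0.75% for AT5MAT, 1.06% for FLS1, 2.16% for DFR and 9.18% for LDOX. It was 10.5% for F3H, 13.0% for F3'H and 32.3% for CHI, and for PAP1 6.94% were as high or higher. AT5MAT and F3'H lie at the low end of the level axis.

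The transcripts most like CHS and DFR were sought among 8887 tested probe sets with 1 gene name, by the distance between their deviations over the 4 arrays. With 4 arrays many transcripts come close by this measure. Nearest to CHS were AT2G40480 (distance 0.04 log2 units), AT3G57600 (0.04) and AT5G01870 (0.05), with differences of -0.67, -0.69 and -0.65. Nearest to DFR were AT5G11930 (0.15), AT3G20490 (0.16) and AT1G66760 (0.16), with differences of -0.44, -0.55 and -0.46. Pearson's r over the 4 arrays was 0.982 to 0.999 for these 6, as a description. The 3 near DFR were, like DFR, highest on wild-type replicate II, by 0.51 to 0.91 over wild-type replicate I. All 6 were picked for deviations like those of CHS or DFR. Their similar differences, r values and high arrays follow from that choice.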

How the data were processed

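Transcript levels came from 4 Affymetrix ATH1 arrays. The deposited levels are log2 values that the authors background-corrected and normalized by GCRMA, according to the series' design text. The submitters' processing notes name MAS5 too, without its role, and no version. The values were used as deposited. The 64 control probe sets and the 6824 plant probe sets with a mean of at most 2.64 (the lowest 30%) were left out, and all 9 members passed. The other 15922 were tested with limma 3.58.1 in R 4.3.3 (lmFit, then eBayes with trend), two-sided, with Benjamini-Hochberg adjustment over all of them, and called at an adjusted p under 0.05. The procedure was run on simulated data with the spread that the model assumes and with added changes larger than that of any member. That run does not bear on differences of the members' size.

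With 2 arrays a genotype, the smallest two-sided p of an exact permutation test is 0.333, so p-values rest on the model, with 2 residual and 1.98 prior degrees of freedom. Whether replicates came from separate growths is said only as far as each array's pool of 3 independently derived samples.

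The platform annotation lists 14016 probe sets, 13513 with 1 gene and 503 with several, and 8794 are not listed. Loci were matched through gene identifiers to RefSeq, assembly TAIR10.1, for names alone. Members and gene lists were chosen with earlier results of these data known. All members and every list gene with a named probe set are described, and the 3 nearest transcripts to CHS and to DFR. Alternatives were other filters, variance models and normalizations, a replicate block, leaving out each array, and other summaries of the steps. Counts of members without each array were added after seeing the data. The search for promoter motifs was not run, since no sequence was used here. Plots were made in Python 3.11.15 with matplotlib 3.10.9.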

Additional observations from a re-analysis of the deposited data

Results flagged for a closer look

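The 25S rRNA control probe set, which no comparison of the pathway uses, was at 6.30 and 6.97 in php against 5.40 and 5.50 in wild-type, a log2 difference of 1.18. The 5S rRNA control was at 5.05 and 5.59 in php against 4.38 and 4.09 in wild-type. For the GAPDH control the 3' minus 5' log2 difference was 1.54 and 1.46 in php against 1.71 and 1.60 in wild-type, and for ubiquitin 1.05 and 0.93 in php against 1.04 and 0.92 in wild-type. For actin it was the widest, at 4.88 and 4.90 in php against 4.87 and 4.77 in wild-type, so php was higher there and lower for GAPDH. In level, the GAPDH controls were lower in php, with log2 differences of -0.38 (3'), -0.22 (5') and -0.31 (middle). In the same order, those of actin (0.10, 0.03 and 0.18) and ubiquitin (0.08, 0.07 and 0.26) were higher. The part of the rRNA signal and of these control levels in the pathway differences was not tested.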

How the results depend on the processing

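The 9 member differences were recomputed under up to 11 alternatives, 97 values in all. None passed limma's adjusted p of 0.05, the smallest being 0.0616. Other filters, other variance models and the replicate block left each difference unchanged, so no direction could turn there. Leaving out 1 array could turn only CHI, whose genotypes overlapped. Only the other normalizations could turn the rest. With the values fixed in this way counted in, 95 kept their direction. Both that turned were of CHI, which ranged from -0.36 to 0.14 with 1 array left out (0.04 without php replicate I, 0.14 when wild-type replicate II was missing). With the lowest 50% of probe sets left out, F3'H and AT5MAT were not tested. Of all probe sets, limma called 5, with 0 when no dim probe set was filtered out (8020 at an unadjusted p under 0.05), 21 with the lowest 50% left out, 9 after median centring, and 0 whichever 1 array was left out (1913 to 4020 unadjusted). With the replicate block limma called 0 (4311 unadjusted). When no dim probe set was filtered out, 26.2% of all were higher in php and 9.04% lower at an unadjusted p under 0.05 in limma. With the filter these shares were 11.3% and 12.9%, so the dim probe sets added mostly higher values in php. The cause was not tested. The replicate I minus II difference in php correlated at 0.52 with that in wild-type over all probe sets tested, and at 0.30 over the members. The labels tie nothing else to the replicate number and there are only 2 pairs. The early median ranged from -0.50 to -0.25 and the late median from -0.90 to -0.21 with 1 array left out, and the early minus late gap from 0.03 to 0.32. That gap was 0.04 with AT5MAT left out of the late steps. The cause of these shifts was not tested. With wild-type replicate I left out, 7 members were lower in php at an unadjusted p under 0.05 in limma, where 7.94% of all probe sets were. The count was 3 with any other array left out, where the share was 11.1% (php replicate I), 11.8% (php replicate II) and 7.1% (wild-type replicate II).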
